A study of Mus musculus with 6 samples.

Results

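The genes of hyaluronan synthesis, breakdown and binding were followed in back skin of mouse embryos with and without Fzd6. The set was Has1, Has2 and Has3 (synthases), Hyal1 and Hyal2 (hyaluronidases), Cd44 and Hmmr (receptors) and Vcan (a proteoglycan that binds hyaluronan), read through every probe set annotated to 1 of these symbols alone. It was chosen because a Has2 probe set was lower in the knockout, so each difference between the genotypes given for a member is a description and not a test. Of the 8 genes, 7 had such a probe set, 22 in all among the 45037 on the array. Hyal1 had none, since both probe sets that carry its symbol also carry Naa80, and no value is given for it.

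RNA came from back skin at stage E15.5 and was hybridised to Affymetrix MOE430 2.0 arrays. The controls were 3 samples of Fzd6 +/- embryos and the knockouts 3 samples of Fzd6 -/- embryos, all of a mixed C57BL6/129 background. Every animal thus carried at least 1 mutant allele of Fzd6, a Frizzled receptor of planar cell polarity, and no wild-type group was measured. The sample titles call the 3 of each group biological replicates. The labels do not describe the allele, nor say whether embryos were pooled or shared a litter, so how far the samples are independent is not known. Values are RMA summaries read as log2, and a difference is knockout minus control.

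Hyaluronan is a long unsulfated sugar chain that fills the space between cells and binds water. Synthases in the plasma membrane join UDP-glucuronic acid to UDP-N-acetylglucosamine and push the growing chain out of the cell, hyaluronidases cut it, and receptors and proteoglycans such as CD44 and versican hold it at the cell surface and in the matrix. In skin the dermis is rich in hyaluronan, and keratinocytes make it as well, around the living layers of the epidermis.

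The samples had the markers of embryonic skin. Dermal fibroblast genes (9 of 10 listed were measured) averaged 11.7 to 12.6 on the log2 scale across the 6 arrays, basal epidermis (7 of 7) 10.5 to 11.1 and suprabasal epidermis (10 of 10) 11.4 to 12.4, against array medians of 5.99 to 6.03. Skeletal muscle (8 of 8 genes, 10.2 to 11.2) and endothelium (8 of 8, 7.20 to 8.50) were present too. Knockout 1 and control 1 stood apart from the other arrays: relative to its mean over the arrays the endothelial list lay at −0.94 and −0.39 in them and between 0.27 and 0.36 elsewhere, and the fibroblast list at −0.58 and −0.30 against 0.14 to 0.31. The adipocyte list (5 of 6 genes) lay at 1.04 in control 1 and between −0.35 and −0.090 in the other arrays. Other lists moved with the genotype. All 10 suprabasal genes had higher means in the knockout, 8 of them without overlap (median difference 0.39), and the list averaged 11.4 to 11.6 in the controls and 11.8 to 12.4 in the knockouts. All 7 mast cell genes did too, 5 without overlap (median 0.56), at list levels of 8.17 to 8.88 against 8.96 to 9.11. Over all genes the knockouts were all higher in 6.99%, and no gene of these lists passed limma's adjusted p of 0.05. The part of these lists in the members' differences was not tested. Fewer cells of a type and less RNA per cell cannot be told apart in such bulk samples.

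Fzd6 itself was read by 3 probe sets. The probe set 1448662_at read 6.22, 6.09 and 6.09 in the controls against 5.49, 5.53 and 5.36 in the knockouts. Its groups did not overlap, and its mean lay below the median level of the array. The brightest, 1417301_at, read 9.50, 9.51 and 9.11 in the controls against 9.07, 9.01 and 8.71 in the knockouts. All its knockouts also lay below all controls, with a difference of −0.44 (95% confidence interval −0.78 to −0.11). The last, 1458904_at, differed by −0.0097 (−0.21 to 0.19). Where these probes lie relative to the mutation was not used here.

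A promoter is shown for Hmmr because 10 of 18 promoters of the mitosis genes listed beside it hold the same pair of sequence elements. Genes of late cell division are known for a CHR element (TTTGAA) close to the start of transcription and for CCAAT boxes before it, bound by the MuvB complexes and by NF-Y. Sequences are from RefSeq on GRCm38.p6, 280 bases from 250 before to 30 after the start base, 5′ to 3′ in the direction of the gene, with TTTGAA, each CCAAT box and their reverse complements in capitals. Hmmr is shown with Ube2c, a mitosis gene with both elements, and Bub1, one with CCAAT but no TTTGAA. Only these exact letters were searched, so a near form such as the ttcgaa close to the end of the Bub1 sequence was not counted.
Hmmr: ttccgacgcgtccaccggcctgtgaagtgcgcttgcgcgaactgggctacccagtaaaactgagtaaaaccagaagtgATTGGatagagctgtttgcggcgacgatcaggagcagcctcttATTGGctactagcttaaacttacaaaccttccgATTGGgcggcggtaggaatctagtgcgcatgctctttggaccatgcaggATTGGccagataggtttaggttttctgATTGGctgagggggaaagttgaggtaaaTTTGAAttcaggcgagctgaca
Ube2c: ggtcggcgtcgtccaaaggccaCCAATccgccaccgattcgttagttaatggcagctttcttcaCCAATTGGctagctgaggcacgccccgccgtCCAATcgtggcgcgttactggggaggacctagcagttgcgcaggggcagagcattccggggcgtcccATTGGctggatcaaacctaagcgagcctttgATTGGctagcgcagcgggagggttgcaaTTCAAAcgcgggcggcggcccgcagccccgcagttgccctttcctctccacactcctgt
Bub1: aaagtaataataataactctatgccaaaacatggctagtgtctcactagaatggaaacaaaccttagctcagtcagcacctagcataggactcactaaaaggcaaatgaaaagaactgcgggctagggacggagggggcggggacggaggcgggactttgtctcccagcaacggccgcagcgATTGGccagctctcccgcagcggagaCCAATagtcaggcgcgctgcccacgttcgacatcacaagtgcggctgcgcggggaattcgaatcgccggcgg

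The Hmmr window lies at chr11:40733408-40733687 on the minus strand and holds 5 CCAAT boxes, all in the reverse orientation, and 1 TTTGAA that begins 8 bases after the start base. That of Ube2c lies at chr2:164769679-164769958 on the plus strand and holds 6 CCAAT boxes in either orientation, of which one pair overlaps, and 1 TTTGAA in reverse 29 bases before the start. The Bub1 window, at chr2:127831830-127832109 on the minus strand, holds 2 CCAAT boxes and no TTTGAA. Over all 32851 promoters of that length 17.2% held TTTGAA on either strand, 36.1% held CCAAT and 6.4% held both. Of 18 promoters of 17 genes of the mitosis list, 10 held TTTGAA (55.6%), all of them with CCAAT, and 17 held CCAAT (94.4%). Of the 6 hyaluronan genes with an entry, Has1 and Hmmr held both elements, Vcan and Hyal1 held CCAAT alone, and Hyal2 and Cd44 held neither. Has2 and Has3 have no entry. A match is a description of letters and was not tested as a site.

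Has2, the main synthase of embryonic mesenchyme, had lower values in the knockout in both of its probe sets, and to a different degree. The dimmer one, 1418678_at, which led to the choice of the set, read 6.46, 6.40 and 6.66 in controls 1 to 3 and 5.94, 5.87 and 5.90 in knockouts 1 to 3. All knockouts lay below all controls, and the knockouts lay within a span far narrower than the gap. The means were 6.50 ± 0.14 and 5.90 ± 0.036 (SD, n = 3). They differed by −0.60 (95% confidence interval −0.82 to −0.38), which is 1.52-fold lower in the knockout.

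The brighter Has2 probe set, 1449169_at, read 7.39, 7.60 and 7.66 in the controls against 7.08, 7.50 and 7.45 in the knockouts. Here the groups overlapped, with knockouts 2 and 3 above control 1. The means were 7.55 ± 0.14 and 7.34 ± 0.23, a difference of −0.21 (−0.52 to 0.10), which ran from −0.29 without knockout 2 to −0.077 without knockout 1. Within replicate numbers 1, 2 and 3 the knockout array was lower, by −0.32, −0.098 and −0.21. Both probe sets were designed from the same RefSeq record. The gap between them was 0.94, 1.20 and 1.00 in the controls and 1.14, 1.63 and 1.55 in the knockouts. On average it was 1.05 ± 0.14 and 1.44 ± 0.27, so it was wider in knockouts 2 and 3 than in any control, while knockout 1 lay among the controls.

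**Figure D1:**
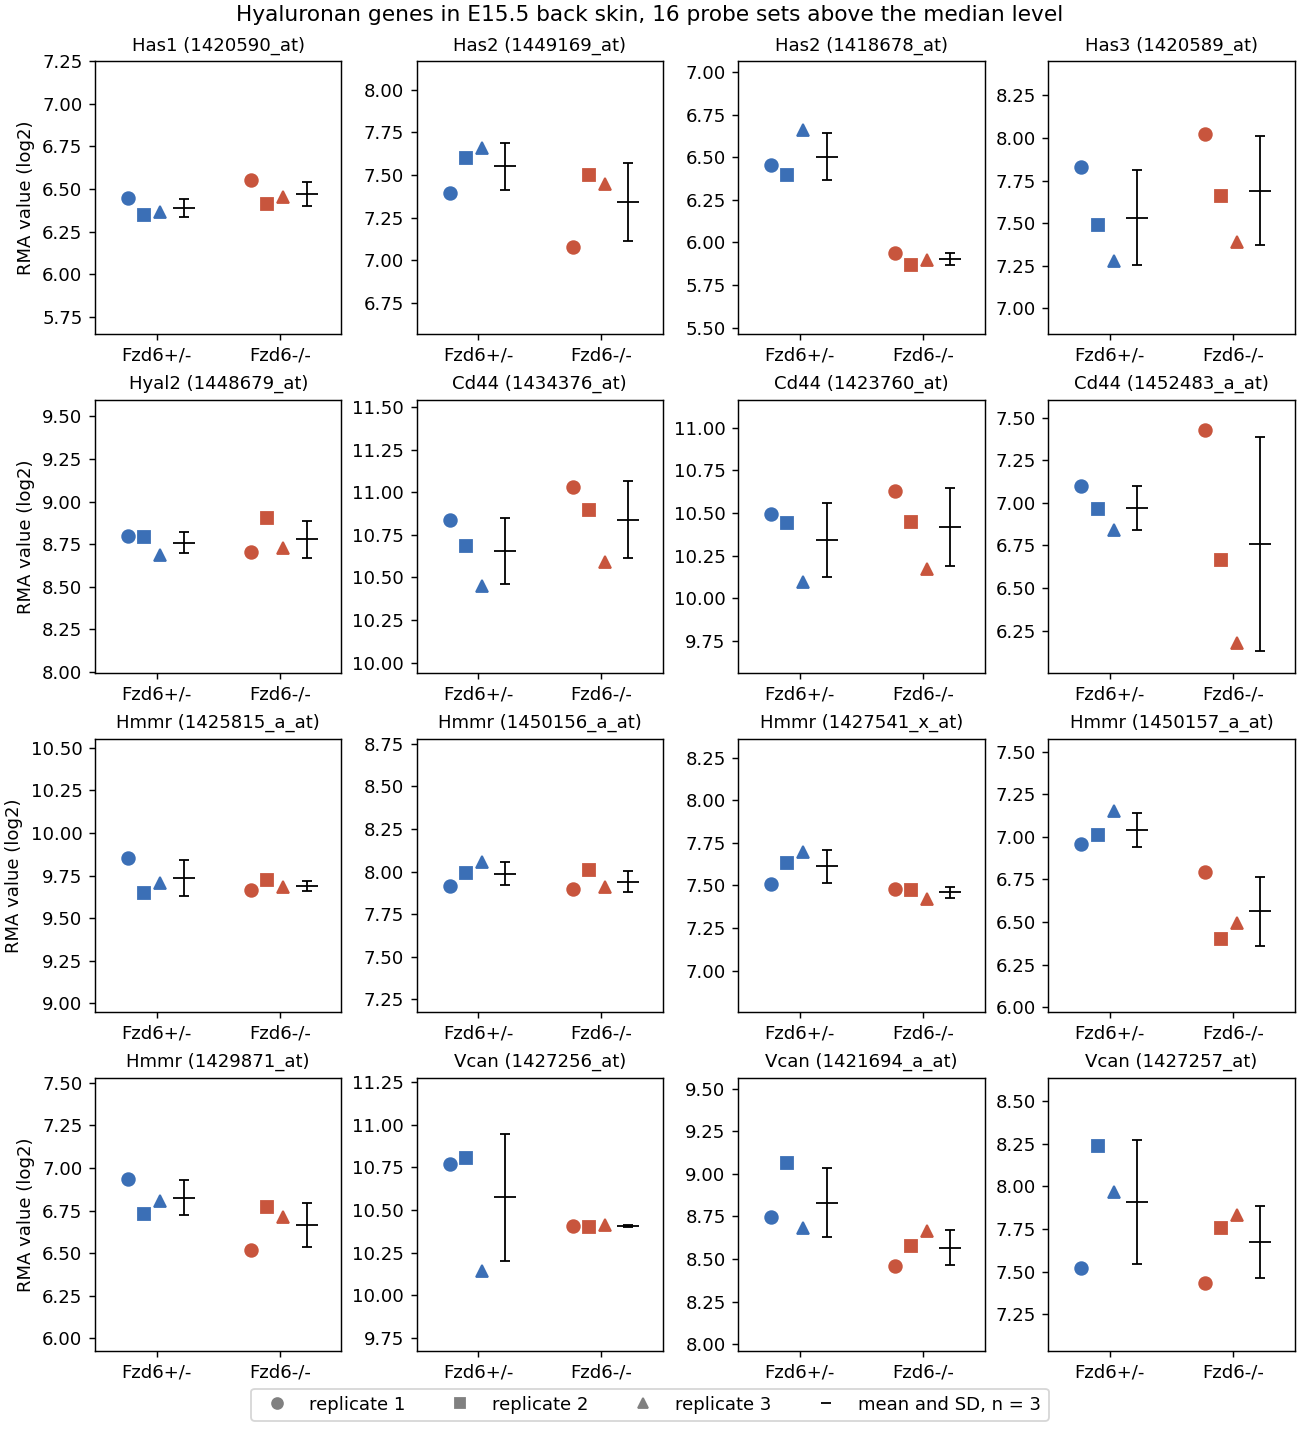
RMA values (log2) of the 16 probe sets of the hyaluronan genes above the median level, one panel each with a span of 1.6, for Fzd6 +/- (blue) and Fzd6 -/- (red) arrays, with mean and SD (n = 3) in black. Has2 1418678_at separates the groups (5.87 to 5.94 against 6.40 to 6.66), whereas Has3 and the bright Cd44 probe sets vary more within a group than between the groups.

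Has2 and Fzd6 lie on the same chromosome, 15, with 154 genes between them in the RefSeq gene table of GRCm38.p6. Of the 48 of these that were measured, 2 had all knockout arrays lower and 4 all higher, and their median difference was 0.019. Among all 18194 measured genes all knockouts were lower in 4.31% and all higher in 6.99%, and the median difference was 0.0070. The genes beyond Fzd6 and beyond Has2, 154 on each side, gave 5 of 45 and 5 of 55 with all knockouts lower. All knockouts were higher in 2 beyond Fzd6 and in 5 beyond Has2.

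The other synthases had higher means in the knockout, with intervals that included 0. Has3, the synthase most associated with keratinocytes, read 7.83, 7.49 and 7.28 in the controls against 8.03, 7.66 and 7.39 in the knockouts. The groups overlapped almost fully, and the values differed more between arrays of a group than between the groups. The difference was 0.16 (−0.29 to 0.61). It ran from −0.0084 without knockout 1 and 0.031 without control 3 to 0.31 without knockout 3 or without control 1. Within replicate numbers 1, 2 and 3 the knockout array was higher by 0.19, 0.17 and 0.11.

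Has1, usually the least active synthase, read 6.45, 6.35 and 6.36 in the controls against 6.55, 6.41 and 6.45 in the knockouts. Its difference was 0.085 (−0.10 to 0.27), above the SD within either group (0.054 and 0.072), with an overlap of the groups through control 1.

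Hyal2 is a hyaluronidase anchored at the cell surface that cuts long chains. Among the members with 1 probe set, it varied less over the arrays than Has3 and slightly more than Has1. It read 8.80, 8.79 and 8.69 in the controls against 8.70, 8.90 and 8.73 in the knockouts. The difference was 0.021 (−0.19 to 0.23), and knockout 2 was the highest array while control 3 was the lowest.

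Cd44, the principal hyaluronan receptor of the cell surface, whose transcript is spliced into many forms, was read by 4 probe sets. The brightest, 1434376_at, read 10.84, 10.69 and 10.45 in the controls against 11.03, 10.90 and 10.59 in the knockouts. Control 3 and knockout 3 were the low arrays of their groups, and the groups overlapped. The difference was 0.18 (−0.15 to 0.52), or 0.079 without control 3 and 0.31 without knockout 3, and that of 1423760_at, which had the same order of arrays within each group, was 0.075 (−0.28 to 0.43).

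Another Cd44 probe set, 1452483_a_at, did not follow these. Its suffix marks probes that several transcript forms of the gene share. It read 7.10, 6.97 and 6.84 in the controls but 7.43, 6.66 and 6.18 in the knockouts. Knockout 1 was thus the highest of the 6 arrays and knockout 3 the lowest, and the SD was 0.63 in the knockouts against 0.13 in the controls. The difference was −0.21 (−0.87 to 0.45). It turned to 0.078 (−0.47 to 0.62) without knockout 3 and was −0.55 (−0.91 to −0.18) without knockout 1, so it rested on which of these arrays was kept. The gap between 1434376_at and this probe set was 3.74, 3.72 and 3.61 in the controls and 3.60, 4.23 and 4.41 in the knockouts, wider than in any control in knockouts 2 and 3, as in Has2. The last, 1443265_at, had a mean of 3.00, lower than 97% of all probe sets, and carries little signal.

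Hmmr, or RHAMM, binds hyaluronan at the cell surface and the mitotic spindle inside the cell. All of its 5 probe sets had lower means in the knockout, by −0.046 to −0.48, and all lay above the median level of the array. In the brightest, 1425815_a_at, the controls were at 9.86, 9.65 and 9.71 and the knockouts at 9.66, 9.72 and 9.68. These groups overlapped, and the difference was −0.046 (−0.24 to 0.15).

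The largest difference of Hmmr came from 1450157_a_at, which read 6.96, 7.01 and 7.15 in the controls against 6.79, 6.40 and 6.50 in the knockouts. The groups did not overlap, with a difference of −0.48 (−0.76 to −0.20). Its neighbour 1450156_a_at, designed from the same GenBank record, read 7.92, 7.99 and 8.06 in the controls against 7.90, 8.01 and 7.91 in the knockouts, a difference of −0.048 (−0.24 to 0.14). Hmmr thus had, like Has2, a pair of probe sets of one record that gave different sizes. In 1427541_x_at all knockouts were also lower (−0.15, −0.34 to 0.040), and 1429871_at differed by −0.16 (−0.39 to 0.074).

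Vcan encodes versican, a large chondroitin sulfate proteoglycan whose head binds hyaluronan and which marks the dermal condensate and papilla of the hair follicle. It was read by 8 probe sets, of which 3 lay above the median level and 5 at means of 3.08 to 3.83 with differences of −0.035 to 0.022. The 3 brighter ones all had lower means in the knockout. In 1421694_a_at the controls were at 8.75, 9.06 and 8.68 and the knockouts at 8.46, 8.58 and 8.66, without overlap by a narrow margin between control 3 and knockout 3. The difference was −0.26 (−0.54 to 0.015), −0.15 without control 2 and −0.34 without control 3.

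The brightest, 1427256_at, read 10.77, 10.81 and 10.14 in the controls against 10.40, 10.40 and 10.41 in the knockouts. The knockouts were nearly equal (SD 0.0076) and lay between control 3 and the other controls. The difference was −0.17 (−0.57 to 0.24), and it was −0.38 without control 3 and −0.051 without control 2. In 1427257_at, made from the same GenBank record, the controls were at 7.52, 8.24 and 7.97 and the knockouts at 7.44, 7.76 and 7.83. Here the replicate 1 arrays were the low ones of each group, and the difference was −0.23 (−0.68 to 0.21). It was −0.070 without control 2 and −0.12 without knockout 1, but −0.43 (−0.80 to −0.064) without control 1 and −0.31 (−0.59 to −0.034) without replicate 1 of both groups.

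**Figure D2:**
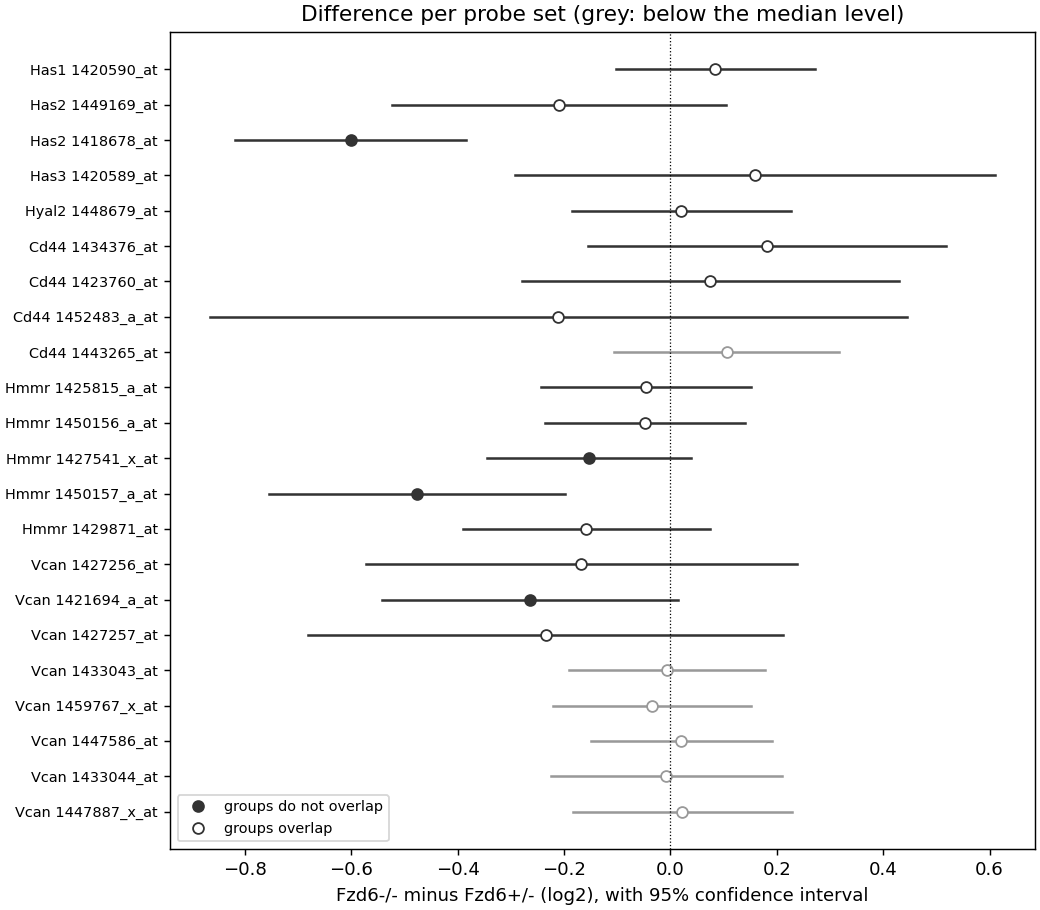
Difference between Fzd6 -/- and Fzd6 +/- arrays (log2, 3 against 3) for all 22 probe sets of the hyaluronan genes, with the 95% confidence interval of the limma fit. Filled points, at Has2 1418678_at (−0.60), Hmmr 1450157_a_at (−0.48) and 1427541_x_at (−0.15) and Vcan 1421694_a_at (−0.26), mark groups that do not overlap, and grey marks probe sets below the median level.

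Over the 22 probe sets, 14 had lower and 8 higher means in the knockout, with a median difference of −0.040 against 0.0018 for all probe sets. All knockouts lay below all controls in 4 and above them in 0, where over the whole array the shares were 5% and 6.55%. Since the set was chosen on this contrast, nothing is read from that count. The limma fit over all 45037 probe sets called 0 at an adjusted p of 0.05 (0%, smallest adjusted p = 0.295), members included. An unadjusted p under 0.05 was reached by 2348 probe sets (5.21%), among them 2 members, Has2 1418678_at and Hmmr 1450157_a_at, each with a limma adjusted p of 0.909. With the replicate number as a block the fit called 3 probe sets (0.00666%), none of a member.

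The block narrowed some intervals of the members. Without it the 95% interval lay off 0 in 2 of the 22 probe sets, and with it in 6, where over the whole array an unadjusted p under 0.05 was reached by 5.21% and 12% of the probe sets. The 4 added were Has2 1449169_at (−0.40 to −0.024), Vcan 1421694_a_at (−0.50 to −0.026) and 1427257_at (−0.46 to −0.0056), and Cd44 1434376_at, the one with a higher value (0.012 to 0.35). In each of these 4 the knockout array lay on the same side of its control in all 3 pairs of one replicate number, a pairing that the labels do not state. The same held in Has1, Has3, Cd44 1423760_at and Hmmr 1427541_x_at, whose intervals with the block included 0. These intervals are not adjusted for the number of probe sets, and for chosen members they are a description.

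The members did not vary alike from array to array. Each probe set above the median level was centred on its mean over the 6 arrays and set beside the mean patterns of 12 lists, 11 of cell types and 1 of mitosis, by the root mean square of the differences over the arrays. A flat profile stands at the member's own root mean square, so a smaller value means that the list follows the member. This measure was added after the data were seen, is a description over 6 arrays, and the lists differ in how far they swing.

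Cd44 1423760_at lay nearest to basal epidermis, at 0.083 against 0.19 for a flat profile, and 1434376_at did too, at 0.10 against 0.19. In both, as in that list, control 3 was lowest and knockout 3 next. The centred basal list stood at 0.027, 0.15 and −0.37 in controls 1 to 3, against 0.20, 0.20 and −0.20 in knockouts 1 to 3.

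Has3 lay nearest to the melanocyte list (0.14) and then to basal epidermis (0.17), against 0.26 for a flat profile. It was highest in knockout 1 and lowest in control 3, and the melanocyte list (6 of 6 genes) was highest in knockout 1 as well. The suprabasal list, which stood at −0.36, −0.35 and −0.14 in controls 1 to 3, against 0.67, 0.13 and 0.047 in knockouts 1 to 3, was not among the 3 nearest lists to Has3 or Cd44.

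Has2 1449169_at lay nearest to the dermal condensate and to the nerve and glia list (0.10 each), against 0.19 for a flat profile. Its lowest array, knockout 1, was also the lowest of the condensate (−0.41) and fibroblast (−0.58) lists. The Vcan probe sets differed in this. The one at 1427257_at lay nearest to dermal condensate (0.18) and dermal fibroblast (0.20), against 0.27, whereas the brightest, 1427256_at, lay nearest to the mitosis list (0.16 against 0.23) and farther than a flat profile from dermal condensate (0.28) and dermal fibroblast (0.42). The nearest list to 1421694_a_at was also mitosis (0.13 against 0.19). The low values of Has2 1449169_at and Vcan 1427257_at in knockout 1 came in the array where dermal and endothelial genes were lowest, and the part of that in their difference was not tested. Has2 1418678_at, whose highest knockout was knockout 1, followed none of the lists closely (nearest 0.27 against 0.31). Its difference was −0.62 without knockout 1 and −0.64 without replicate 1 of both groups. All the fits that left out arrays, these included, gave −0.66 to −0.52. As this probe set led to the choice of the set, these values are a description. The part of the tissue lists in its difference was not tested either.

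**Figure D3:**
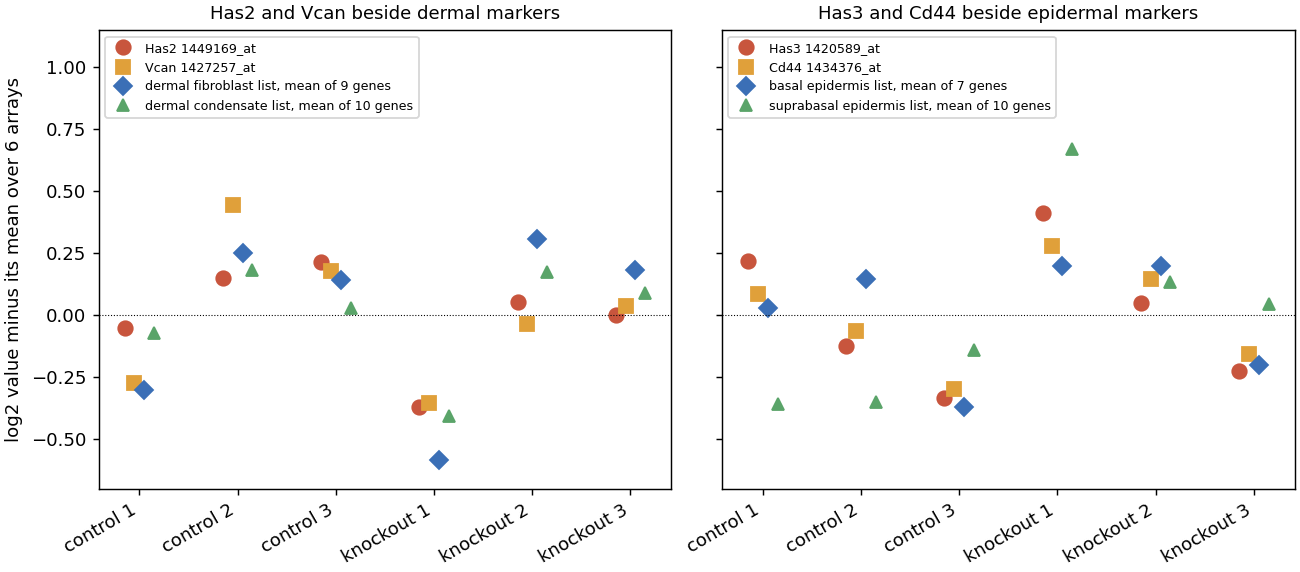
Values of 4 members and of marker lists on each array, as log2 value minus its mean over the 6 arrays. On the left Has2 1449169_at and Vcan 1427257_at are lowest in knockout 1, where the dermal fibroblast list lies at −0.58; on the right Has3 and Cd44 1434376_at are lowest in control 3, as is the basal epidermis list at −0.37, while the suprabasal list is highest in knockout 1 at 0.67.

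The genes whose brightest probe set came nearest to a member in pattern were listed by the same measure among 18193 genes. To Has2 1449169_at these were Elapor2 (0.023), Cpne1 (0.031), Pex5 (0.031), Gnb4 (0.034) and Dzip1 (0.035), where the median gene stood at 0.23. To Has2 1418678_at they were 4930447C04Rik (0.090), Atf7ip2 (0.13), Cdk2 (0.13), Fibin (0.13) and Smarca1 (0.13), with a median gene at 0.34. The dimmer probe set swings further over the arrays (root mean square 0.31 against 0.19), so these distances are not on one scale with those of the brighter one.

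To Vcan 1427256_at the nearest were Tmed4 (0.072), the mitotic spindle factor Tpx2 (0.075), the secreted BMP and Wnt antagonist Sostdc1 (0.076), the growth factor Pdgfa (0.080) and Lrrc3b (0.088), with a median gene at 0.27. Sostdc1 and Pdgfa are made by the epithelium of the embryonic hair placode and epidermis. Hmmr 1425815_a_at varied little over the arrays, and its nearest genes, Caml, Ggt5, Mzf1, Syngr1 and Hspa14, stood at 0.017 to 0.020 with a median gene at 0.14.

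Other genes of the pathway, and a list of mitosis genes set beside Hmmr, made up 6 lists chosen by function. Of their 83 genes 78 were measured, each by its brightest probe set. None of the 78 passed limma's adjusted p of 0.05 in either direction, and 8 had an unadjusted p under 0.05, where the share over all genes was 5.07%. All knockouts were lower in 8 of the 78 (10.3%) and higher in 1, where the shares over all genes were 4.31% and 6.99%. Their median difference was −0.11 against 0.0070 for all genes, with 56 lower and 22 higher values. The mitosis list gave 19 of the 56 lower values and 2 of the 8 genes with all knockouts lower. Its direction was known when it was chosen, so the pooled counts and median partly carry that choice. In 4 of the 6 lists, all but the precursor and mitosis genes, the sign of the median turned when 1 array was left out, as given with each.

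The precursors of hyaluronan come from a short series of sugar enzymes, and 7 of 8 of these had lower values in the knockout (median −0.17). Ugdh, which makes UDP-glucuronic acid, read 9.94, 9.88 and 9.84 in the controls against 9.69, 9.67 and 9.60 in the knockouts. The groups did not overlap, with a difference of −0.24 (−0.42 to −0.060). Uap1, which makes UDP-N-acetylglucosamine, differed by −0.31 (−0.60 to −0.0087), with an overlap, and Ugp2, which makes UDP-glucose, by −0.21 (−0.51 to 0.091).

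Among 10 measured genes of the list for hyaluronan breakdown, 4 had higher and 6 lower values (median −0.081), and no gene separated the groups. The list also counts Arsb, whose sulfated substrates are not hyaluronan. The median turned to 0.087 without knockout 1 and to 0.013 without control 3, and lay at −0.15 without control 1. Cemip, which binds hyaluronan and is needed for its breakdown by fibroblasts, ranged from 5.47 to 6.45 in the controls and from 5.03 to 6.01 in the knockouts, a difference of −0.51 (−1.22 to 0.20). Its relative Cemip2 differed by −0.26 (−0.68 to 0.16). The lysosomal enzymes Hexa, a hexosaminidase subunit (−0.12, −0.73 to 0.49), and Arsb, a sulfatase of dermatan and chondroitin sulfate (−0.17, −0.84 to 0.51), were both lowest in knockout 1 and next lowest in control 1.

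Of 11 other receptors and Cd44 partners, 8 had lower and 3 higher values (median −0.076). It turned to 0.062 without knockout 1 and to 0.032 without control 2, and was −0.19 without knockout 2. Radixin (Rdx), which ties the tail of CD44 to actin, read 10.87, 10.85 and 10.86 in the controls against 10.72, 10.69 and 10.63 in the knockouts. The groups were apart by more than the spread of either, with a difference of −0.18 (−0.35 to −0.0080). Ezrin (Ezr), of the same family and abundant in epithelia, differed by 0.23 (−0.20 to 0.65) through knockout 1, at 11.07 against 10.31 to 10.60 elsewhere. The receptor Tlr2, an innate immune receptor for which hyaluronan fragments have been described as ligands, differed by −0.19 (−0.42 to 0.031).

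The hyaluronan-binding and cross-linking proteins were the list with the most higher values, 12 of 17 (median 0.043). The median was −0.0092 without knockout 3 and 0.094 without control 3. Against that, Ptx3, a pentraxin that links hyaluronan chains through inter-alpha-trypsin inhibitor heavy chains, read 9.58, 9.65 and 9.60 in the controls against 9.00, 9.26 and 9.33 in the knockouts. All knockouts were lower, by −0.42 (−0.66 to −0.18). The heavy chain gene Itih1 was the one gene of the 78 with all knockouts higher (0.18, 0.0028 to 0.35), at a level of 5.10 and 5.28, below the median of the array. Itih5, a heavy chain made in skin, differed by 0.26 (−0.37 to 0.89).

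Of 13 measured versican partners and proteases, 11 had lower values in the knockout (median −0.18). That median turned to 0.10 without knockout 1, and was −0.34 without control 1 and −0.030 without control 2. Adamts5, a protease that cuts versican, read 7.45, 7.59 and 7.55 in the controls against 7.11, 7.34 and 7.40 in the knockouts. The groups did not overlap, with a difference of −0.24 (−0.48 to −0.011). Adamts15, another such protease, differed by −0.31 (−0.66 to 0.035). The matrix proteins Fn1 (−0.25, −1.23 to 0.73) and Fbln1 (−0.10, −0.89 to 0.69) swung far more between arrays than between groups and were lowest in knockout 1 and control 1, as the fibroblast list was.

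The 19 measured mitosis genes all had lower means in the knockout, as Hmmr had, with a median of −0.13. It was −0.034 without replicate 1 of both groups, −0.077 without control 1, −0.080 without control 2 and −0.20 without control 3. Nusap1, a spindle protein, differed by −0.28 (−0.46 to −0.098) and the checkpoint kinase Bub1 by −0.26 (−0.44 to −0.085), both without overlap. The most abundant by signal, Ube2c (−0.060, −0.52 to 0.41) and Top2a (−0.13, −0.42 to 0.17), overlapped. Centred on their means, these genes averaged 0.13, 0.13 and −0.071 in controls 1 to 3, against −0.15, 0.035 and −0.082 in knockouts 1 to 3, so knockout 2 stood above control 3. Of the 12 lists compared, this one was the nearest to 1425815_a_at and 1450157_a_at and the next nearest to the other Hmmr probe sets. It mostly lay farther than a flat profile, a measure that also depends on how far the list and the member swing. By root mean square, 1425815_a_at lay at 0.098 from it against 0.068 for a flat profile. For 1450156_a_at the values were 0.11 against 0.058, and for 1427541_x_at 0.13 against 0.096. They were 0.2713 against 0.2721 for 1450157_a_at, while 1429871_at lay nearer, at 0.093 against 0.12. That cell division genes tended lower in these arrays was known when the list was chosen, so it is not independent evidence of that direction.

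**Figure D4:**
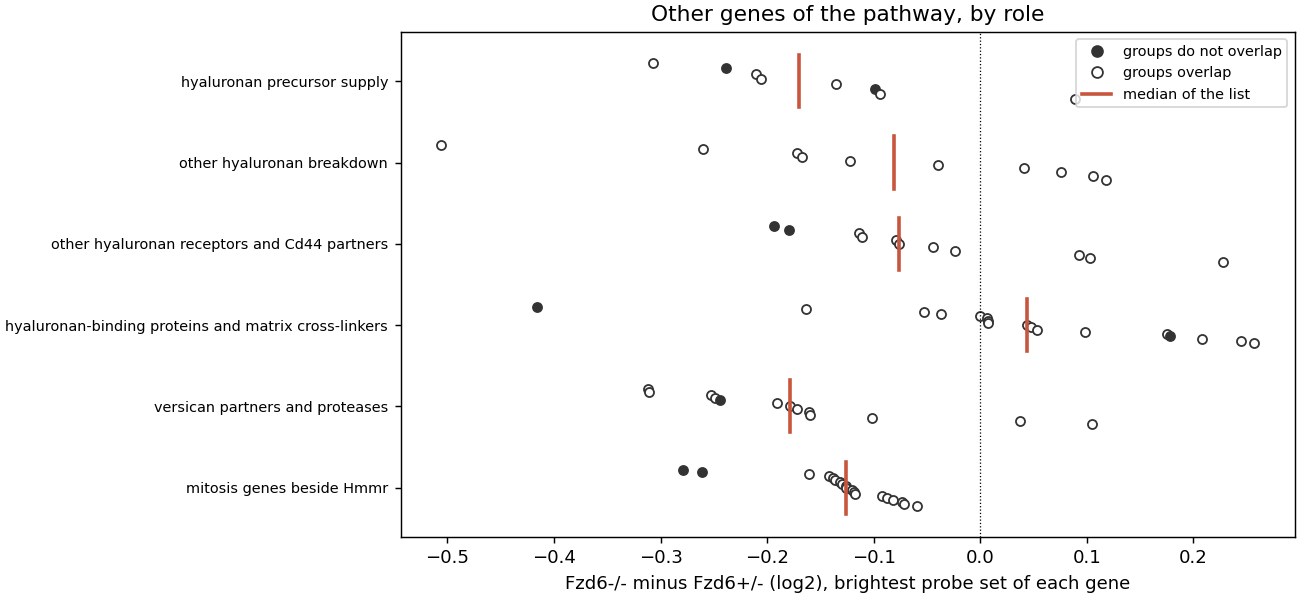
Difference between Fzd6 -/- and Fzd6 +/- arrays (log2, brightest probe set per gene) for 78 genes, of the pathway and of mitosis, in 6 lists by role. Filled points mark groups that do not overlap and red bars the list medians. The mitosis genes, listed with that direction known, all lie below 0 with a median of −0.13. The binding proteins centre near 0 (median 0.043) with Ptx3 at −0.42.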

How the data were processed

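The deposited values are log2 expression summaries per probe set made by RMA (background correction, quantile normalisation, summary over probes), per the submitters' processing notes, which give no version. The log base was read from the range, 2.39 to 14.8. RMA forces the arrays to one distribution and pulls dim probe sets toward 0 change, and detection calls were not used here. Of 45101 rows, 64 control probe sets were dropped, and dim probe sets stayed in. Names came from the platform annotation, updated through Entrez identifiers to GRCm38.p6: 34945 probe sets had 1 symbol (34741 of them in the gene table), 932 had several and 9160 had none. Probe sets with several symbols were not named. The brightest probe set stood for a gene (18194 genes).

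The genotypes were compared in limma 3.58.1 (R 4.3.3) by lmFit and eBayes, two-sided, on all 6 arrays without covariates. There were 4 residual and 3.43 prior degrees of freedom. P-values were adjusted over 45037 probe sets after Benjamini and Hochberg, with a threshold of 0.05, and intervals are 95%. The script was tested on simulated data. The number of arrays limits the precision. No 2 arrays were duplicates (SD of their difference 0.199 to 0.397).

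Deviations from the group mean correlated at 0.57, 0.36 and 0.12 between arrays of the same replicate number. The numbers paired the arrays only in the replicate block and not in the main fit. That pairing rests on the data alone, and control 2 correlated more with knockout 3 (0.42). The members and gene lists were chosen with earlier results of these data known. Named genes are all members, Fzd6, the 2 genes of each list with the highest level and the 2 with the smallest unadjusted p, and the 5 nearest in pattern. Alternatives were a variance trend, only probe sets above the median, further quantile normalisation, centring, array weights, the replicate block, leaving out arrays, and another choice of probe set or window. Figures used matplotlib 3.10.9 in Python 3.11.15.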

Additional observations from a re-analysis of the deposited data

How the results depend on the processing

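The difference of Has2 1418678_at lay between −0.66 and −0.52 and that of 1449169_at between −0.29 and −0.077 over all 13 alternatives. Of the 22 member probe sets, 12 kept their sign in every alternative run and 10 did not, among them Has3, Hyal2, Hmmr 1425815_a_at and 5 dim Vcan probe sets. One value moved by more than the replicate SD, Hmmr 1429871_at at −0.029 without replicate 1 of both groups. With the replicate block 3 probe sets passed the adjusted threshold, against 0 in each of the other 12 alternatives, and no member or listed gene passed in any of the 13. The count at an unadjusted p under 0.05 was 5419 with the block, 3575 with array weights, 1338 without control 2 and 952 when only probe sets above the median were tested, which leaves fewer tested; for the first 3 the cause was not tested. On leaving out arrays, chosen after seeing the data, the member probe sets with all knockouts lower numbered 4 to 7, and the share over all probe sets rose from 5% to between 8.07% and 17.8%, as fewer arrays overlap less often. The share of genes with all knockouts lower was 4.17% between Fzd6 and Has2, 11.1% beyond Fzd6 and 9.09% beyond Has2, in windows of 154 genes, and the cause was not tested. Over the 14 alternatives of each list, the median took the other sign in 1 for the versican partners, 3 for breakdown (0.026 with the probe set of smallest SD per gene), 4 for receptors (0.025 with array weights), 2 for the binding proteins (−0.023 with probe sets above the median) and 0 for the precursor and mitosis genes.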
